A study of Mus musculus with 4 samples.

Results

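Interferon-stimulated genes are the genes that interferons switch on. They were followed here through 49 open chromatin regions, which are all the rows of a table of 23595 ATAC-seq peaks whose nearest annotated gene is 1 of 38 listed members. The cells were neutrophils, short-lived phagocytes, sorted from mouse bone marrow. ATAC-seq uses the Tn5 transposase to cut accessible DNA and tag it for sequencing, and more reads at a site mean that it was more accessible. There were 2 libraries from mice described as Morrbid deficient on a C57BL6 background (KO) and 2 from C57BL6 wild type (WT). Morrbid encodes a long non-coding RNA, and the comparison of KO with WT asks where accessibility differed without it. The labels give no age, sex or treatment and do not say how the allele was made, and 50000 cells of each genotype were transposed in duplicate. Whether replicates came from separate animals is not stated, so the spread behind each p-value may be technical only. In sorted bulk cells, a site open in fewer cells and a site less open in each cell cannot be told apart.

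Type I interferons signal through the receptor of Ifnar1 and Ifnar2 to the kinases JAK1 and TYK2, which activate transcription factors that include STAT2 and IRF9. These bind the interferon-stimulated response element (ISRE) in target promoters. Interferon gamma acts through Ifngr1 and Ifngr2 on the gamma-activated site (GAS). The targets include RNA sensors, proteins that block viral entry, translation or release, and GTPases that attack the vacuoles of intracellular microbes. In neutrophils these genes respond strongly to interferon, and some are transcribed at rest.

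Of the 38 genes, 27 had at least 1 peak and 11 had no row. Those with no row were Dhx58, Ifi205, Oas1a, Oas2, Oasl1, Mx1, Mx2, Isg15, Ifi44, Cxcl9 and Slfn5, and their accessibility is not analysed here. The 49 peaks comprised 24 promoter peaks of 21 genes, meaning peaks annotated as promoter or centred within 1000 bp of a transcription start site (TSS), and 25 distal peaks of 15 genes. Among the promoter peaks, 20 covered the annotated TSS. Distal peaks were assigned by the nearest TSS alone, and 7 of the 49 peaks lay within transcripts of another gene, such as the peak 4955 bp upstream of Cxcl10, in an intron of Art3. Families such as the IFIT, GBP, IRG, Schlafen and Ifi200 genes hold close copies, and reads in them can be split between copies depending on the mapping.

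The sequence that ties these genes together could be read from RefSeq promoters of build GRCm38.p6, which held 32 of the 38 genes in windows from 250 bases before to 50 after a start. Not matched were Dhx58, Zbp1, Ifi204, Oas2, Mx1 and Mx2. The letters GAAANNGAAA, an ISRE core, were searched on both strands. They stood in 19 of the 32 genes (59.4%), against 1079 of 27025 genes (3.99%) with a window of the same length. The letters TTCNNNGAA, a GAS core that reads the same on both strands, stood in 7 of the 32 (21.9%), against 9.55% of all. The ISRE letters were found in 11 of 19 matched genes that had a promoter peak. They were found in 15 of 25 matched genes with any peak row and in 4 of 7 with no row. The letters thus did not divide members with a row from members without. Where a gene had 1 window, ISRE letters and a promoter peak (10 genes), the letters fell within the span of a peak in 8, as judged by their distance from the TSS, taking the annotated start as the same in both builds. A match of letters is a description and not a measured binding site. The last 140 bases before the start are given for 7 genes, with ISRE letters in capitals, on the gene's own strand. They were chosen to show single and tandem copies, and include Isg15, which had no peak row. The stretches lie in GRCm38.p6 at chr19:34640749-34640888 (Ifit1, plus strand), chr12:26456453-26456592 (Rsad2, minus), chr4:156200819-156200958 (Isg15, minus), chr8:71537473-71537612 (Bst2, minus), chr3:142559904-142560043 (Gbp3, plus), chr11:48871421-48871560 (Irgm1, minus) and chr11:58199416-58199555 (Igtp, plus).
Ifit1: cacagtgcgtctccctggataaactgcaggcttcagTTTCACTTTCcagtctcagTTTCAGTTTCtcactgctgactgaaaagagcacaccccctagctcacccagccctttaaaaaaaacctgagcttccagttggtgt
Rsad2: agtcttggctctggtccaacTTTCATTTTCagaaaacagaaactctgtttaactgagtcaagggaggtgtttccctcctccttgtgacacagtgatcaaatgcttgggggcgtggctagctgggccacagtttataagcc
Isg15: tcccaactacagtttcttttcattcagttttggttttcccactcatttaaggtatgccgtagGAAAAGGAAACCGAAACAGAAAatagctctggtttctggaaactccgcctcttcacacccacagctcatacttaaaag
Bst2: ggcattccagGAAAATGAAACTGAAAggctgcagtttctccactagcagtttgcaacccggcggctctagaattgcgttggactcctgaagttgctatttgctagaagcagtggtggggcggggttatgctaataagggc
Gbp3: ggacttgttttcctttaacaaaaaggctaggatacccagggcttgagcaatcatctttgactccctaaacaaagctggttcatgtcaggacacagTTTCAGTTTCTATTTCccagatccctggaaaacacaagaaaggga
Irgm1: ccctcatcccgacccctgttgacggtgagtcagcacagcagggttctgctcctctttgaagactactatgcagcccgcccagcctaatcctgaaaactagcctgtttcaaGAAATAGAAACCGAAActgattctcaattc
Igtp: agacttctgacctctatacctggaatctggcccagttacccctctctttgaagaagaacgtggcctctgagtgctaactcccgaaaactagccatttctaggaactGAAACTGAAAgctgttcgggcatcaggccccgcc

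Ifit1 carried 2 separate copies, beginning 104 and 85 bases before the start. Isg15 carried 3 overlapping copies and Bst2, Gbp3 and Irgm1 each 2 overlapping copies, while Rsad2 and Igtp carried 1.

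The deposited signal is a normalised read concentration per peak. Values of a library were whole multiples of 1 step to within 0.02 of a step. A step is taken here as 1 read, which the sources used do not state, so the read counts, read ratios and their intervals are inferred. On that reading the total over all peaks ranged from 3577922 to 3803711 reads in WT and from 6182922 to 7930547 in KO. Both KO libraries were thus deeper than both WT libraries, and depth cannot be told apart from genotype. Over the member peaks the reads numbered 8450 and 10878 in KO, and 5213 and 5631 in WT. The lowest count at any member peak was 32 and 31 reads in the KO libraries, and 9 and 13 in the WT libraries. These are minima within each library and not the values of a single peak. The 2 intronic peaks of Morrbid, listed under its older symbol Gm14005, had a signal of 0.883 and 0.693 in KO against 165.8 and 154.5 in WT at the first, and 0.883 and 0.693 against 120.3 and 119.7 at the second, so both libraries labelled KO were nearly without signal there. Of 13 neutrophil marker genes 10 had a peak, with none for Ly6g, Mpo and Elane. The summed promoter signal of the 9 with a promoter peak was 4858 and 4954 in KO and 4872 and 4301 in WT. The sum hides changes at single sites. Of the 27 peaks of these markers, 5 were called higher and 3 lower (29.6%, against 10.6% of all peaks). Of their 9 promoter peaks, 0 were higher and 1 was lower. Of the plasmacytoid dendritic cell markers, from cells that make much type I interferon, Siglech, Ccr9 and Klk1 had no peak, while Tcf4, Runx2 and Il3ra had promoter peaks summing to 2704 and 2638 in KO and 2533 and 2544 in WT. The 22 peaks of that list had 1 higher call and 0 lower (4.55%, against 10.6% of all peaks). Both KO libraries lay above both WT libraries in 9 of the 22 (40.9%) and below them in 2 (9.09%). Over all peaks these shares were 28% and 27.3%. The B and T or NK cell lists had no promoter peak. The B list had 5 distal peaks of 1 gene and the T or NK list 3 of 2 genes. Their median WT signals were 70.64 and 712.6, against 92.01 for all distal peaks. Both KO libraries lay above both WT libraries at 2 peaks of each list (40% and 66.7%) and below at 0. The conventional dendritic, eosinophil or basophil and erythroid lists had 10, 7 and 7 peaks. No peak of any of these lists was called, against 10.6% of all peaks. The monocyte and macrophage list had 3 promoter peaks among 8 genes, summing to 286.1 and 284.1 in KO and 312.6 and 260.3 in WT. The part of other cells in the results was not tested.

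In WT, the members' promoters were weak for promoters and their distal peaks strong for distal peaks. The 24 promoter peaks had a median WT signal of 97.6 against 235 for all promoter peaks, with 20 below that median, and the 25 distal peaks had 157 against 92.01 for all distal peaks, with 5 below. Member promoter peaks were also short, with a median of 492.5 bp against 806 bp. Per kb of peak, the promoters still had 185.9 against 297.4, with 20 of 24 below, and the distal peaks 278.8 against 209.6, with 8 of 25 below. No test was made of these medians.

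Per kb of peak, the most open promoter in WT was that of Isg20, an exonuclease that degrades RNA, with 416.7 ± 14.78 (SD, n = 2 libraries). Cxcl10, a chemokine that draws T cells through CXCR3, had 382.4 ± 24.73 in a peak of only 181 bp, and Ifi204, a DNA sensor, had 361.1 ± 22.33, and these neighbours overlapped between replicates. Tap1, a subunit of the peptide transporter for MHC class I, followed with 301.9 ± 13.97 per kb. These 4 lay above the median promoter, and the other 20 promoter peaks below it. The lowest were the upstream promoter of Ifi47 with 61.4 ± 13.55, the promoter of Gbp5 with 111.9 ± 16.03 and that of Gbp2 with 117.1 ± 6.718, where Gbp5 and Gbp2, both guanylate-binding GTPases, overlapped. Of all 49 peaks, the most open per kb was the distal Gbp5 peak 18532 bp upstream, with 1015 ± 64.96.

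**Figure D1:**
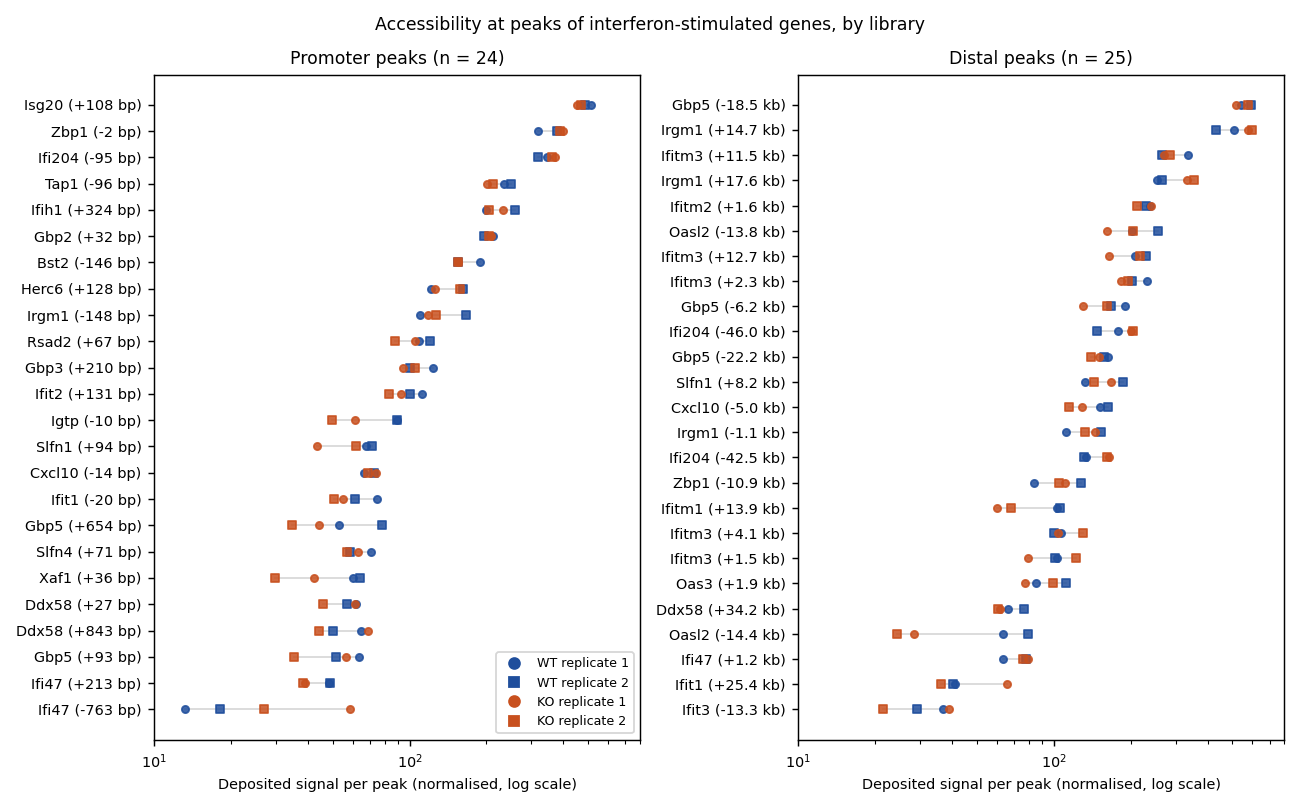
Deposited signal (log scale) of each of the 49 peaks in each library, split into 24 promoter and 25 distal peaks and ordered by the WT mean; blue is WT, orange is KO, circles are replicate 1 and squares replicate 2, and the distance of the peak centre from the TSS stands beside the gene. Libraries of both genotypes lie close together at most peaks, and the widest gap between genotypes is at the called distal Oasl2 peak.

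Across the 49 peaks, 2 were higher and 1 was lower in KO, and 46 were not called. Calls are at a Benjamini-Hochberg adjusted p below 0.05 over all 23595 peaks in limma's two-sided test on log2(signal + 1). The share called among all peaks was 10.6%, with 6.08% higher and 4.55% lower, and the members' 3 calls of 49 did not exceed that share. The called members were a promoter of Ifi47, a distal peak of Irgm1 and a distal peak of Oasl2. Among promoters 1 of 24 was higher and 0 were lower, where 7.6% of all promoter peaks were higher and 5.8% lower. At an unadjusted p under 0.05, 1 member promoter was higher and 3 were lower, where 15.7% and 16.1% of all promoter peaks were. Limma without a mean-variance trend called 0 member peaks, and only 22 (0.0932%) of all peaks.

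Over all 49 member peaks, called or not, the fold changes leaned to the lower side. The log2 fold change of KO over WT was negative in 34 of 49 peaks, against 11855 of 23595 over the table. Its median was -0.14 against -0.0019 over all peaks. It was negative in 18 of 24 member promoters, against 4766 of all 9084 promoter peaks. The promoter median was -0.15 against -0.02 over all promoter peaks. Both KO libraries lay below both WT libraries in 17 of the 49 peaks and above them in 7, where 27.3% and 28% of all peaks did so. The median was negative in each pairing of 1 KO with 1 WT library, from -0.0940 to -0.16. Weak peaks as a whole also leaned lower. When all peaks were split into 4 equal bins by mean signal, the median in the weakest bin was -0.08 over all peaks and -0.22 over 15 members, and in the strongest bin it was 0.11 over all and 0.14 over 7 members. After cyclic loess, a scaling that depends on peak strength, the members' median was -0.0938. The part of depth and peak strength in this lean was not tested, and members share libraries and in places a locus, so the counts are a description of the list.

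**Figure D2:**
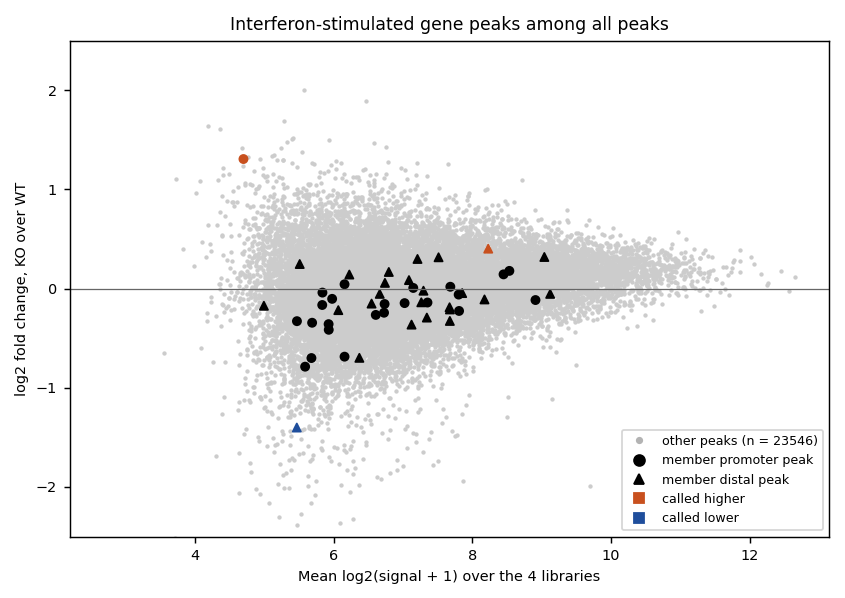
Log2 fold change of KO over WT against mean log2(signal + 1) over the 4 libraries, for the 49 member peaks (circles promoters, triangles distal, colour for the 3 calls) over the 23546 other peaks in grey; the axis stops at 2.5 and leaves out 10 other peaks beyond it. Most member peaks lie in the left and middle of the cloud and somewhat below 0.

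The sensors of foreign nucleic acid were the only role group with a positive median log2 fold change (0.06), and 0 of their 9 peaks were called. Zbp1, which senses Z-form nucleic acid and can trigger cell death, had a promoter signal of 398 and 388 in KO and 318 and 379 in WT (log2 fold change 0.18, SE 0.125, adjusted p = 0.382). Ifi204 had 372 and 361 in KO and 346 and 317 in WT at its promoter (log2 fold change 0.14). Its distal peaks, 42546 and 46008 bp upstream and both in LINE repeats, had log2 fold changes of 0.30 and 0.32 (adjusted p = 0.297 and 0.233). Both KO libraries lay above both WT libraries at these 4 of the group's 9 peaks (44.4%), 3 of them at Ifi204, yet none was called. They lay below at 1 of the 9 (11.1%). Over all peaks these shares were 28% and 27.3%. The other Zbp1 peak, 10865 bp upstream and within Pmepa1, had overlapping genotypes and a log2 fold change of 0.06. The RNA sensors had negative values. Ddx58, which encodes RIG-I, had log2 fold changes of -0.16 at its start, -0.04 in its first intron and -0.22 at its 3' end. Ifih1, which encodes MDA5, had 232 and 204 in KO and 199.6 and 257.5 in WT, which overlapped, with a log2 fold change of -0.06 that turned to 0.12 without WT replicate 2.

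The direct antiviral effectors held the only lower call. The IFIT proteins restrict the translation of viral RNA. Their promoters had 54.7 and 50.6 in KO against 74.8 and 61.2 in WT for Ifit1, and 92.7 and 83.1 against 111.5 and 100.2 for Ifit2. The genotypes did not overlap at either, but neither passed (log2 fold changes -0.36 and -0.27, 95% intervals -0.91 to 0.19 and -0.71 to 0.18, adjusted p = 0.422 and 0.467). The peak listed for Ifit3 lies 13255 bp upstream in the 5' UTR of its neighbour Ifit2, with a log2 fold change of -0.17. The peak 25435 bp downstream of Ifit1 had a log2 fold change of 0.25 with overlapping genotypes.

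Of the OAS family, whose enzymes make the second messenger that activates RNase L, 2 of 5 genes had peaks and neither had a promoter peak. The peak 14406 bp upstream of Oasl2, at 115332428 to 115332647 of chromosome 5 in mm9, had a signal of 28.3 and 24.2 in KO and 63.1 and 79.3 in WT. Both KO libraries were far below both WT libraries, and the signal fell from 71.2 ± 11.47 to 26.2 ± 2.834 (log2 fold change -1.40, SE 0.311, 95% interval -2.04 to -0.76, adjusted p = 0.00518). In reads this was 67 over both KO libraries against 100 over both WT libraries, a ratio after scaling of 0.364 with a 95% interval from 0.263 to 0.501, which covers counting error only. This peak lies in an intron of 4930519G04Rik, and an adjoining peak in the 3' UTR of that gene, 13845 bp upstream of Oasl2, was not called (161.6 and 203.7 in KO against 202.5 and 256.1 in WT, log2 fold change -0.33, adjusted p = 0.22). The call was lost without KO replicate 2 (log2 fold change -1.29, adjusted p = 0.102) and in limma without a trend (adjusted p = 0.0769), and the peak was left out by a filter at a mean signal of 50. Without WT replicate 1 the adjoining peak was called too (log2 fold change -0.49, adjusted p = 0.0289). Oas3 had 1 peak in its first intron, in an LTR repeat, with overlapping genotypes and a log2 fold change of -0.15.

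Membrane proteins that stop virus at entry or release gave 8 peaks, none called, of which 7 had a negative log2 fold change. Bst2 encodes tetherin, which holds budding virions at the cell surface, and its promoter had 154.5 in both KO libraries and 187.9 and 154.5 in WT (log2 fold change -0.14). The IFITM proteins, which block fusion of virus with endosomes, lie together on chromosome 7 and had 7 peaks, all distal. Ifitm2 had 1 at its transcription end (log2 fold change -0.05), and Ifitm3 had 5 between 1545 and 12705 bp downstream of its TSS with log2 fold changes from -0.21 to 0.17. The peak 13886 bp downstream of Ifitm1 came closest to a call. It had 60 and 67.9 in KO and 102.7 and 105.8 in WT, with no overlap (log2 fold change -0.70, SE 0.232, adjusted p = 0.0526). The choice to single this peak out was made after its values were seen. It passed limma's test under total scaling (adjusted p = 0.0416), without WT replicate 1 (0.0339) and with a filter at a mean signal of 50 (0.0496). It did not pass under median centring (0.0723), cyclic loess (0.11) or limma without a trend (0.121), nor when the first KO library (0.387), the second KO library (0.256) or the second WT library (0.0549) was left out.

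Other antiviral genes gave 4 promoter peaks, none called. Xaf1, a pro-apoptotic factor that antagonises XIAP, had 42.4 and 29.8 in KO and 60.2 and 64 in WT, with no overlap between genotypes (log2 fold change -0.79, SE 0.303, 95% interval -1.41 to -0.16, adjusted p = 0.094). Rsad2 encodes viperin, which makes a chain-terminating nucleotide, and had 105.1 and 88 in KO and 108.6 and 119.7 in WT (log2 fold change -0.24). The strong Isg20 promoter had 453.9 and 468.4 in KO and 512.2 and 487.1 in WT (log2 fold change -0.12, 95% interval -0.34 to 0.11), with no overlap. Herc6, the ligase that attaches ISG15 to proteins in mice, had overlapping genotypes and a log2 fold change of 0.01, or -0.19 without WT replicate 1.

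**Figure D3:**
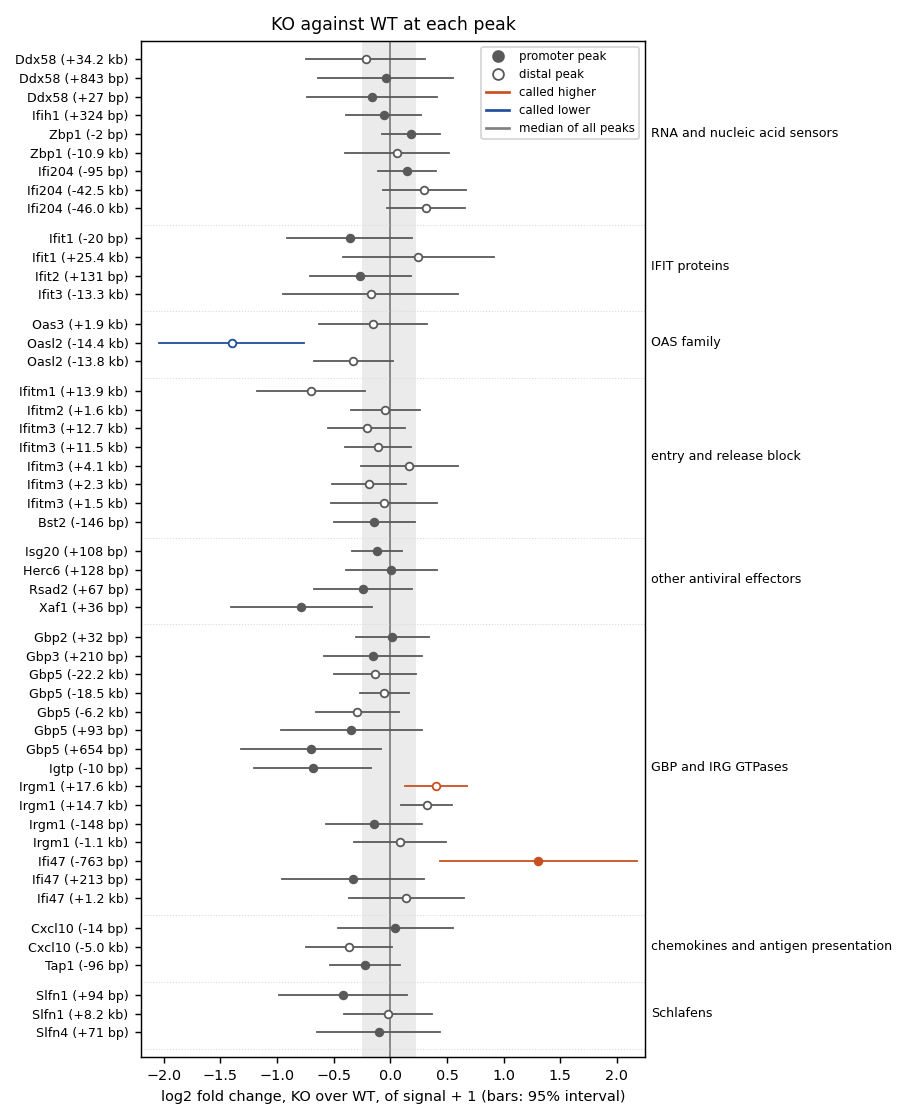
Log2 fold change of KO over WT with its 95% interval for each of the 49 peaks, grouped by role; filled points are promoter peaks and open points distal peaks, orange marks the 2 peaks called higher and blue the 1 called lower, and the grey band spans the quartiles of all peaks. Most intervals span 0, including those of nearly all promoters.

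The interferon-inducible GTPases, which coat and disrupt the vacuoles of bacteria and parasites, gave 15 peaks at 6 genes. Of these, 2 were higher and 0 lower (13.3%, against 10.6% of all peaks). Both calls lay in the cluster of immunity-related GTPases (IRG) on chromosome 11, where 13.6% of all peaks were called. Ifi47, an IRG protein, had a promoter peak at 48889200 to 48889453, centred 763 bp upstream of a TSS, with 58.3 and 27 in KO and 13.2 and 18.1 in WT. Both KO libraries were above both WT libraries but differed widely from each other, and the signal rose from 15.65 ± 3.454 to 42.65 ± 22.10 (log2 fold change 1.31, SE 0.423, 95% interval 0.44 to 2.18, adjusted p = 0.0469). Only 22 reads over both WT libraries stood against 105 in KO, a scaled ratio of 2.59 with a 95% counting interval from 1.63 to 4.32. The call was lost without KO replicate 1 (log2 fold change 0.77, adjusted p = 0.703), without KO replicate 2 (1.85, adjusted p = 0.152), under total scaling (adjusted p = 0.0636) and in limma without a trend (0.153), and the peak was left out by a filter at a mean signal of 50. The other promoter peak of Ifi47, 213 bp past a second TSS and inside an intron of Olfr56, had 38.9 and 38.1 in KO against 48.4 and 48.7 in WT (log2 fold change -0.33, adjusted p = 0.529), and the peak 1188 bp past it had a log2 fold change of 0.14.

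At Irgm1, a regulator of the other IRG GTPases and of autophagy, the downstream sites and the promoter had log2 fold changes of opposite sign. A site at 48666861 to 48667567 of chromosome 11, centred 17634 bp past the TSS, had 333.8 and 354 in KO and 253.9 and 265.8 in WT. It rose from 259.9 ± 8.44 to 343.9 ± 14.32 (log2 fold change 0.40, SE 0.132, 95% interval 0.13 to 0.67, adjusted p = 0.0493). The neighbouring peak 14693 bp downstream, which overlaps a tRNA annotated for valine and was the stronger of the pair, had 575.7 and 596.5 in KO and 509.3 and 432.8 in WT and missed the threshold (log2 fold change 0.32, SE 0.108, adjusted p = 0.0581). The genotypes did not overlap at either. The Irgm1 promoter had 118.3 and 126.8 in KO within the WT range of 110.1 to 167 (log2 fold change -0.15, adjusted p = 0.699). A peak 1059 bp upstream also had overlapping genotypes (log2 fold change 0.09). Whether the downstream sites differ from the promoter was not tested. The distal call was lost without KO replicate 1 (log2 fold change 0.45, adjusted p = 0.28), without KO replicate 2 (0.36, adjusted p = 0.462), under total scaling (0.35, adjusted p = 0.0898), under cyclic loess (0.35, adjusted p = 0.0982) and without a trend (adjusted p = 0.192). The neighbour was gained under median centring (limma adjusted p = 0.0205) and without WT replicate 1 (0.00207).

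The other GTPases gave no call. The Igtp promoter on the same chromosome had 60.9 and 49.9 in KO and 89.5 and 89.1 in WT, with no overlap (log2 fold change -0.69, SE 0.25, 95% interval -1.20 to -0.17, adjusted p = 0.0771). The guanylate-binding proteins lie together on chromosome 3. Gbp2 had 207.5 and 203.7 in KO and 211.3 and 194.8 in WT at its promoter, which overlapped (log2 fold change 0.02, 95% interval -0.30 to 0.34), and Gbp3 had a log2 fold change of -0.15. Gbp5, which also promotes inflammasome assembly, had 5 peaks with log2 fold changes from -0.70 to -0.05. The most negative was a peak 654 bp into the gene with 44.2 and 34.6 in KO and 52.8 and 77.9 in WT (adjusted p = 0.133), called only without WT replicate 1 among the settings run (log2 fold change -0.98, limma adjusted p = 0.0162). The strongest, 18532 bp upstream, had 517.5 and 576.4 in KO and 541.5 and 592.9 in WT (log2 fold change -0.05, 95% interval -0.27 to 0.16).

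**Figure D4:**
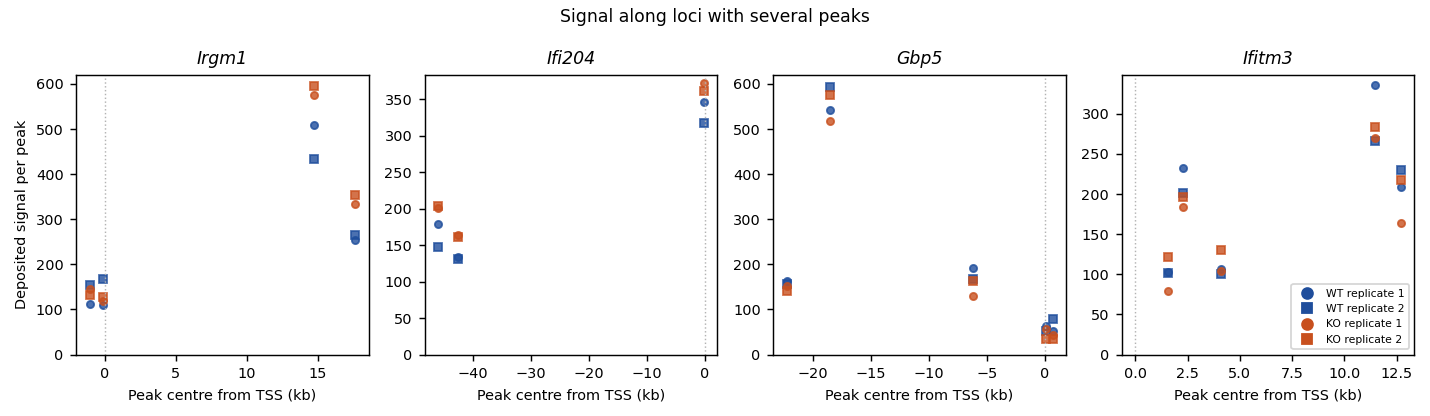
Deposited signal of each library at each peak of Irgm1, Ifi204, Gbp5 and Ifitm3, placed by the distance of the peak centre from the TSS (dotted line, negative upstream); blue is WT, orange is KO, circles replicate 1 and squares replicate 2. At Irgm1 the KO libraries lie above WT at both peaks over 10 kb downstream and among them at the promoter, and at Gbp5 the strongest peak is the one 18532 bp upstream.

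Chemokine, antigen presentation and Schlafen genes gave 6 peaks, none called. Cxcl10 had 74.2 and 68.6 in KO and 66 and 72.4 in WT at its promoter, which overlapped (log2 fold change 0.04, 95% interval -0.47 to 0.55). The peak 4955 bp upstream in Art3 had 128.9 and 115 in KO and 151.2 and 162.8 in WT, without overlap (log2 fold change -0.36, adjusted p = 0.214). Tap1 had 200.5 and 212 in KO and 233.3 and 249.1 in WT, also without overlap (log2 fold change -0.23, 95% interval -0.53 to 0.08, adjusted p = 0.357). The Schlafens are regulators of lymphoid and myeloid cell growth, and Slfn1 and Slfn4 had promoter log2 fold changes of -0.42 and -0.10 (adjusted p = 0.353 and 0.844), and the peak 8229 bp downstream of Slfn1 had -0.02.

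The peaks were also counted by position, without a test. On chromosome 11, where 58 of 1491 peaks were higher and 145 lower over the table (median log2 fold change -0.13), the 12 member peaks held both higher calls and no lower one (median -0.06). Elsewhere the 37 member peaks had 0 higher and 1 lower call (2.7%) with a median of -0.14. Of all 22104 peaks off chromosome 11, members included, 1376 were higher and 929 lower (10.4%), with a median of 0.01. The members' median was thus as negative without chromosome 11 as with it.

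The upstream pathway and other interferon-induced genes gave the setting. Of 59 peaks of 24 genes for interferon receptors and signalling, 1 was higher and 0 lower (median log2 fold change -0.02). It was the promoter of Ifngr1, the ligand-binding chain of the interferon gamma receptor, with 947.5 and 945 in KO and 735.3 and 768.3 in WT (log2 fold change 0.33, SE 0.085, adjusted p = 0.0136). The promoters of Stat2, Irf9, Irf7 and Ifnar1, which carry the type I signal or amplify it, had log2 fold changes of -0.11, 0.15, 0.01 and 0.07 and were not called. Those of Ifnar2 (-0.41, adjusted p = 0.176) and Ifngr2 (-0.29, 0.114) had both KO libraries below WT, and those of the kinases Jak1 (0.25, 0.053) and Tyk2 (0.35, 0.243) had both above, and none of the 4 passed limma's test. The uncalled promoter nearest the threshold was that of Socs3 (-0.53, limma adjusted p = 0.0506), with both KO libraries below WT. Of the list's 23 promoter peaks, 6 (26.1%) lay below WT in this way and 5 (21.7%) above. Over all promoter peaks these shares were 30.4% and 28.9%. Of 85 peaks of 41 other interferon-induced genes, 4 were higher and 3 lower, with a median of -0.09. The promoter of Gvin1, a large inducible GTPase, was higher (158.9 and 145.5 in KO, 98.3 and 80.7 in WT, log2 fold change 0.76, adjusted p = 0.0163). The promoter of H2-K1, a classical MHC class I heavy chain, was lower (368.2 and 438.6 in KO, 528.3 and 559.5 in WT, log2 fold change -0.44, adjusted p = 0.016). Distal peaks of Ccrl2 (0.59), Eif2ak2 (0.46) and Samd9l (0.63) were higher and those of Lgals9 (-0.89) and Slfn2 (-0.65) lower on the log2 scale. Together 8 of these 144 peaks (5.56%) were called, against 10.6% of all peaks. Without KO replicate 1 the number was 0 (2.49% of all peaks called) and without KO replicate 2 it was 1 (1.79%). Without WT replicate 1 it was 22 (20.3% of all peaks called) and without WT replicate 2 it was 17 (16.2%).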

How the data were processed

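Per the submitters' processing notes, the tools were HOMER, DiffBind, MACS2 2.1.0, BWA, R 3.1.1, Trimmomatic 0.32 and bcl2fastq 2.16.0, with build mm9 and no order or role. Settings for peak calling, duplicates and the Tn5 offset are not given in the sources read. The authors deposited 1 table with a normalised signal per consensus peak and library, annotated to the nearest TSS per the file headers. Distances to the TSS are another deposited column. Listed widths exceed end minus start by 2 in all 23595 rows, so starts may be off by a base or so. Coordinates are mm9 as deposited.

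Limma 3.58.1 in R 4.3.3 was fitted on log2(signal + 1) with a mean-variance trend and genotype as the only term, over all 23595 peaks, with Benjamini-Hochberg adjustment. Requiring a mean signal above 1 left out 0 peaks. Fold changes on this scale understate weak peaks. Read ratios carry exact conditional 95% intervals. Promoter sequences and gene names came from RefSeq, GRCm38.p6. Figures used matplotlib 3.10.9. On simulated libraries with 200 of 23595 peaks changed, the test of KO against WT found 36% of the 1.5-fold and 90% of the 2-fold changes, with 4 false calls, at a dispersion of 0.005. That dispersion was set for both genotypes and not estimated from these libraries. The changed peaks were drawn from all peaks, while most member promoters were weaker than the median promoter. Recovery at the members' peaks was thus not measured.

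Members, gene lists and tests were chosen with earlier results of these data known. Named peaks were all called members, up to 4 promoters per role by lowest p, and the 3 largest and smallest changes. Replicates were compared first. By chi-square of reads per degree of freedom, the KO libraries differed by 2.214 and the WT libraries by 2.538, more than sampling noise, so none was a duplicate. No per-sample column was left unused.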

Additional observations from a re-analysis of the deposited data

How the results depend on the processing

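Across 13 alternatives the direction of the members' median held, but the calls did not. Some of these could not move the median. The fit with no filter repeats the main fit, as the filter left out 0 peaks. Dropping the trend or adding the replicate block leaves the fold changes as they were. The 2 higher and 1 lower calls became 1 and 1 with a mean signal above 50 (Irgm1 still called, Ifi47 and Oasl2 left out, and Ifitm1 gained), 0 and 2 under total scaling, 1 and 1 under cyclic loess, and 0 and 0 in limma without a trend, which called 22 of all peaks. With the replicate block they were 3 and 2, the second Irgm1 site and the Ifitm1 peak being gained. Leaving out 1 library gave 0 to 3 higher and 0 to 4 lower, while 1.79% to 20.3% of all peaks were called. Of the promoter calls, the 1 higher became 0 with a mean signal above 50, under total scaling, without a trend and with promoters within 500 bp of a TSS, and 0 to 1 higher and 0 to 1 lower when leaving out 1 library. The median log2 fold change of -0.14 became -0.0712 under median centring, -0.19 under total scaling and -0.0938 under cyclic loess, where the median of all peaks was 0.06, -0.06 and -0.0023, and -0.15 to -0.12 when leaving out 1 library. The 8 calls in other interferon genes became 13 with a mean signal above 50, 15 with the replicate block, 0 without a trend and 0 to 22 when leaving out 1 library. The cause was not tested. The replicate numbers share only a number, since deviations of same-numbered libraries correlated at -0.039 over all peaks. A fit with a lone library of a genotype takes its spread from the other pair. Of the named peaks' values under alternatives, 293 kept their side of the threshold, 11 lost it and 4 gained it. Those lost were all at peaks called in the main fit, as the other named peaks had no call to lose. Those kept include the values with no filter, which could not change. The sign changed in 12 of the named peaks' values, at 6 peaks and never in a called value. With 9 to 13 WT reads at the weakest peak, depth limits what could be seen there.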
